A study of Mus musculus with 15 samples.

Results

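Across 8 libraries of mouse glioma treated with an antibody against PD-1, 91 of 19390 genes tested differed from 7 libraries of glioma not given the antibody. Of the 91, 34 moved by similar amounts whether or not the mice also received vorinostat. The 34 included class I major histocompatibility complex (MHC) heavy chains, the interferon-inducible GTPase gene Gbp2, the T cell granzyme gene Gzmb and immune receptor segments, together with Prr7, Fam43b, Vgf and Jund. The 8 libraries with the antibody were the anti-PD1 group (n = 4) and the combination of anti-PD1 and vorinostat (n = 4). The 7 without it were the placebo control group (n = 3) and the vorinostat group (n = 4), so that all 15 libraries of the series were used. The effect of anti-PD1 was taken as the mean of the anti-PD1 and combination group means minus the mean of the control and vorinostat group means. It was also taken separately without vorinostat (anti-PD1 minus control) and with it (combination minus vorinostat), and these 2 contrasts share no library.

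All mice carried IDH-mutant brain tumours, started by injecting a 1:1 mixture of DF-1 cells, a chicken fibroblast line, expressing R132H-mutant IDH or PDGFB at 1 site in the brain. Tumours were checked by MRI on day 28 and collected on day 37 after 9 days of treatment. Anti-PD1 was injected into the peritoneum as 1 mg in 100 µl of PBS on a twice-weekly schedule, vorinostat as 1 mg in 100 µl of a DMSO, PEG-300 and Tween-20 vehicle every day, and placebo mice received that vehicle every day. The labels name no control antibody, and the groups with anti-PD1 and without it therefore also differ in whether any antibody was injected. As described, anti-PD1 and placebo mice also differ in the injected fluid and the schedule, while combination and vorinostat mice both received vorinostat. Whether each library comes from a separate mouse is not given, so the p-values measure the spread between these samples.

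PD-1 is an inhibitory receptor on activated T cells, and antibodies that block it release T cells from inhibition by its ligand PD-L1, encoded by Cd274. Activated T cells and natural killer cells release interferon gamma, which acts in part through interferon regulatory factors. These induce the genes that load and present peptides on class I MHC, guanylate-binding and immunity-related GTPases, and chemokines that draw in more lymphocytes. Vorinostat inhibits histone deacetylases.

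The samples are labelled as low-grade glioma cells, but they are tumour tissue. The glioma lineage factor Olig2 lay between 214 and 965 TPM (transcript abundance scaled to gene length and library size) with anti-PD1 and between 594 and 1756 TPM without it. Neuron genes were also present, and a mean of log2(TPM + 1) over 16 of them lay between 5.86 and 6.88 in anti-PD1 libraries, 5.43 and 6.19 in combination libraries, 5.16 and 5.62 in control libraries and 4.60 and 6.39 in vorinostat libraries. In such mixed tissue, fewer cells of a type and less RNA per cell cannot be told apart. Recovered read totals ran from 83.0 to 164.7 (in units of 1e6 reads) per library. A gene was tested where it had at least 1 TPM in at least 3 libraries, changes are differences in log2(TPM + 1), and a gene was called at a Benjamini-Hochberg adjusted p under 0.05 from limma, over all genes tested.

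Of the 91 genes called in the pooled comparison (0.469% of genes tested), 46 rose with anti-PD1 (0.237%) and 45 fell (0.232%). Without vorinostat, 1026 genes were called (5.29%), of which 344 were higher (1.77%) and 682 lower (3.52%) in anti-PD1 than in control libraries. Adjusted for the neuron mean, 3 genes were called there. The neuron means of anti-PD1 and control libraries did not overlap, so treatment and neuron content cannot be told apart in that contrast. With vorinostat, 2 genes were called (0.0103%), both higher in combination than in vorinostat libraries. They were the serine protease gene Klk7, at 0.69 to 1.46 TPM in combination libraries and 0 in every vorinostat library, and Tmem203, with means of 60.9 ± 5.5 TPM in combination and 37.4 ± 2.1 TPM in vorinostat libraries (SD, n = 4 each). At an unadjusted p under 0.05 the comparison with vorinostat held 638 higher and 294 lower genes. Adjusted for the neuron mean, 9 genes were called in it. A difference between the 2 contrasts was itself called for 2 genes (0.0103%), Gm38061 and 2700046G09Rik, so the unequal numbers of calls do not by themselves show that the effect differs by background.

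**Figure D1:**
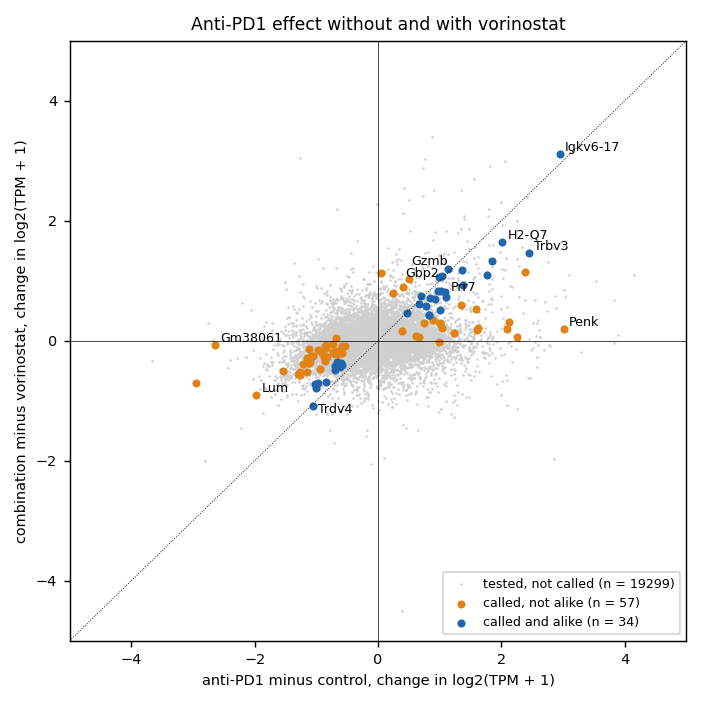
Each point is 1 tested gene, with the change in log2(TPM + 1) of anti-PD1 minus control on the horizontal axis and of combination minus vorinostat on the vertical axis; the dotted line marks equal changes and 1 gene lies outside the axes. The 34 genes called and alike (blue) lie near the diagonal in the upper right and lower left, while the 57 other called genes (orange) lie mostly close to the horizontal axis.

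The 91 genes were called on the average of the 2 contrasts, which favours a shared sign, so the sign count is a description only. Of the 91, 89 had the same sign in both backgrounds, and 81 had the larger change without vorinostat. The median absolute change of the 91 was 1.00 without vorinostat and 0.43 with it. Of the 344 genes called higher without vorinostat, 257 (74.7%) were also higher in combination than in vorinostat libraries, where 57.2% of all tested genes were higher. Of the 682 called lower, 451 (66.1%) were lower there, against 42.8% of all tested genes. These changes were small with vorinostat. The median of the 344 was 0.09 with it and 0.99 without it, and that of the 682 was -0.07 and -0.75. In all, 325 genes had an unadjusted p under 0.05 in both backgrounds, and 266 of them moved in the same direction, 149 higher and 117 lower. At that threshold 1756 of the 19390 tested genes were higher and 4882 lower without vorinostat, beside 638 and 294 with it. Many genes are then shared without any common effect, so the 325 is a description only. Changes were called alike where both had the same sign and the smaller was at least 0.5 of the larger. By that rule 34 called genes moved alike, 23 higher (0.119%) and 11 lower (0.0567%), and 3033 of all tested genes were alike whether called or not (15.6%). Only 30 of the 344 and 29 of the 682 genes called without vorinostat were alike.

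The pooled count rested on single libraries. It came to 7, 15 and 12 genes without control library 1, 2 and 3, to 25, 565 and 40 without anti-PD1 library 2, 3 and 4, to 54, 30, 50 and 224 without combination library 1 to 4, and to 50, 13, 19 and 335 without vorinostat library 1 to 4. Fam43b, Prr7, Trdv4 and Rps25-ps1 were called in all 15 fits that left out 1 library, Gzmb, Ccdc85b and Syt6 in 14 and Lilr4b in 12. Adjusted for the neuron mean, 32 genes were called, 16 of them among the 91. Every one of the 91 genes kept its sign in each of those fits in which it was tested. Of the 46 that rose, 6 reached 1 TPM in no library without anti-PD1, and of the 45 that fell, 4 reached it in no library with anti-PD1. Those 10 passed the filter only through the side where they are high and had to differ to be tested, and they include Klk7, Gzmb, Gimap3, Ascl5, Trdv4 and Gm38061.

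Class I MHC molecules show peptides from inside the cell to CD8 T cells and consist of a heavy chain, encoded in mice by the H2 genes, and the light chain B2m. Of 21 genes of class I presentation, 3 rose, none fell and 18 did not pass, against a background of 0.237% higher calls. Their median change was 0.64 pooled, 0.63 without vorinostat and 0.55 with it, beside medians over all tested genes of -0.05, -0.14 and 0.02. Median-of-ratios scaling moved those overall medians to -0.01, -0.01 and -0.02, so that changes without vorinostat are read against a general shift of -0.14. The changes of 14 of the 21 were alike in both backgrounds, against 15.6% of all tested genes. Of the 21, Nlrc5 was tested only through libraries with anti-PD1, which favours a positive sign. Adjusted for the neuron mean, the list's median was 0.58 and all 21 members were positive, but none was called.

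H2-D1 (chr17:35262730-35267499, GRCm38) encodes a classical heavy chain. It had 360, 847, 864 and 1157 TPM in anti-PD1 libraries, 532, 716, 987 and 577 TPM in combination libraries, 201, 381 and 311 TPM in control libraries and 291, 304, 261 and 361 TPM in vorinostat libraries. Every library with anti-PD1 but anti-PD1 library 1 lay above every library without it. The pooled change was 1.27 ± 0.23 (SE; limma, adjusted p = 0.035), with 1.37 without and 1.17 with vorinostat.

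H2-Q7 (chr17:35439155-35443773) and H2-Q6 (chr17:35424850-35430055) encode nonclassical heavy chains of the Qa-2 group. H2-Q7 had 4.58, 13.5, 13.8 and 27.2 TPM in anti-PD1 libraries, 6.81, 8.52, 20.3 and 7.50 TPM in combination libraries, 1.27, 3.10 and 3.07 TPM in control libraries and 1.94, 2.70, 1.73 and 3.65 TPM in vorinostat libraries. The libraries with and without anti-PD1 did not overlap, which was so in that direction for 0.155% of genes tested. The pooled change was 1.83 ± 0.32 (SE; limma, adjusted p = 0.0331), with 2.02 without and 1.65 with vorinostat. H2-Q6 averaged 9.71 ± 5.63 TPM in anti-PD1, 6.25 ± 2.85 TPM in combination, 1.70 ± 0.77 TPM in control and 1.78 ± 0.69 TPM in vorinostat libraries (SD, n = 4, 4, 3 and 4). It did not overlap either, and its change was 1.59 ± 0.29 (SE; limma, adjusted p = 0.0335). The 2 genes share much of their sequence, with 41.4% of the 31-base words of H2-Q7 and 51.8% of those of H2-Q6 found in other genes, so reads may have been split between them. The class I pseudogene H2-T-ps rose by 0.92 ± 0.16 (SE; limma, adjusted p = 0.0331), and 48.4% of its words occur in other genes.

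These calls were not stable to the removal of a library. H2-Q7 was called in 7 of 15 such fits (adjusted p 0.00974 to 0.0997), H2-T-ps in 6 and H2-D1 and H2-Q6 in 5 each, with pooled changes of 1.66 to 2.05 for H2-Q7 and 1.14 to 1.44 for H2-D1. The remaining class I genes of smallest p just missed the threshold. H2-M3, a nonclassical heavy chain, had 6.93 to 10.9 TPM with anti-PD1 and 4.89 to 7.66 TPM without it (0.51 ± 0.11; adjusted p = 0.0514 by limma). The classical heavy chain H2-K1 had 69.8 to 250 TPM with anti-PD1 and 33.0 to 84.2 TPM without it (1.25 ± 0.27; adjusted p = 0.0535 by limma). B2m had 238 to 656 TPM with anti-PD1 and 172 to 323 TPM without it, with changes of 0.77 without and 0.68 with vorinostat (pooled 0.73 ± 0.19; adjusted p = 0.0782 by limma).

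Promoters of class I genes and of guanylate-binding proteins are textbook targets of interferon regulatory factors, whose core binding letters are AANNGAAA. The 160 bases before the RefSeq start of the 3 called class I genes and of Gbp2 are shown because these genes moved together and each window holds that core once, read on the opposite strand and set in capitals. The sequences are from RefSeq, build GRCm38.p6, all on the plus strand, 5′ to 3′, at chr17:35262934-35263093 (H2-D1), chr17:35424690-35424849 (H2-Q6), chr17:35438995-35439154 (H2-Q7) and chr3:142620503-142620662 (Gbp2).
H2-D1: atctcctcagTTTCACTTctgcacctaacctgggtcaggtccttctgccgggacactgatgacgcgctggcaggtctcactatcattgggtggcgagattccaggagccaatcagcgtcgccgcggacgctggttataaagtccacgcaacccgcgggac
H2-Q6: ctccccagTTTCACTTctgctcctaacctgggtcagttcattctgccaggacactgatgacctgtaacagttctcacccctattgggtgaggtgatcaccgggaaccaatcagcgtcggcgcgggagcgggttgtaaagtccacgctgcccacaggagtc
H2-Q7: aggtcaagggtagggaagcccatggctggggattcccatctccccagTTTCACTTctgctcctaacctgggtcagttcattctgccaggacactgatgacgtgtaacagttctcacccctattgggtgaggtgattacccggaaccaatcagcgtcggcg
Gbp2: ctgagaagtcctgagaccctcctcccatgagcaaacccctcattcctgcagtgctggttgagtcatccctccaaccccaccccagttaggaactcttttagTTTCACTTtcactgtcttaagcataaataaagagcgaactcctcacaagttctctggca
The core begins 150 bases before the start in H2-D1, 152 in H2-Q6, 113 in H2-Q7 and 59 in Gbp2. Shifted by 39 bases, the windows of H2-Q6 and H2-Q7 differ at 3 of 121 positions (97.5% identical), while those of H2-D1 and H2-Q6 are 70.3% identical over 158 bases. Within 250 bases before the start, AANNGAAA on either strand occurs in 6466 of 27025 genes with a promoter in the table (23.9%) and in 2053 of the 10903 tested genes matched there (18.8%). It occurs in 10 of 19 matched class I presentation genes, in 11 of 17 matched interferon gamma response genes and in 9 of 16 matched genes among the 23 that rose alike, which include Jund, Syt6, Atp5d and Lilr4b. The motif was chosen after the promoters were read, and the genes shown above are among those counted. The counts are therefore a description only. These are matches of letters in a fixed window and not measured binding.

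Interferon gamma response genes followed the class I genes in direction. Of 21 tested, 1 rose (background 0.237%), none fell and 20 were positive pooled, against 40.7% of all tested genes, and 19 were positive in both backgrounds. Gbp6 was tested only through libraries with anti-PD1. The medians were 0.43 pooled, 0.36 without vorinostat and 0.56 with it. The median without vorinostat rested on single libraries, at 0.66 without anti-PD1 library 1, 0.09 without anti-PD1 library 4 and 0.20 without control library 1, while the pooled median stayed between 0.37 and 0.56 in the 15 fits that left out 1 library. Gbp2 (chr3:142620602-142638008), a guanylate-binding protein gene, had 4.43, 8.0, 8.02 and 10.8 TPM in anti-PD1 libraries, 5.77, 10.6, 11.3 and 6.87 TPM in combination libraries, 2.14, 4.08 and 3.41 TPM in control libraries and 3.10, 3.65, 2.57 and 4.67 TPM in vorinostat libraries. Only anti-PD1 library 1 overlapped the libraries without the antibody. The change was 1.04 without and 1.08 with vorinostat, 1.06 ± 0.19 pooled (SE; limma, adjusted p = 0.0331), and the call held in 5 of 15 fits that left out 1 library.

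The immunity-related GTPases had larger changes and larger spreads and did not pass. Igtp had 8.31 to 55.8 TPM with anti-PD1 and 2.90 to 9.83 TPM without it (1.73 ± 0.37; adjusted p = 0.0524 by limma). Iigp1 had 3.04 to 17.1 TPM with anti-PD1 and 0.797 to 3.29 TPM without it, with nearly equal changes of 1.57 without and 1.56 with vorinostat (adjusted p = 0.0514 pooled, by limma). Tgtp2, which has the close copy Tgtp1, had 3.42 to 58.2 TPM with anti-PD1 and 1.03 to 4.92 TPM without it (2.41 ± 0.54; adjusted p = 0.0599 by limma). Of 21 tested type I interferon genes none was called, and their median was 0.26 (0.15 without anti-PD1 library 4). Among them Rtp4 was tested only through libraries with anti-PD1. In this list Bst2 was at 0.58 ± 0.24 (adjusted p = 0.185 by limma) and Ifit2 was lower, at -0.57 ± 0.25 (adjusted p = 0.208 by limma).

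Class II presentation genes, which present peptides to CD4 T cells on antigen-presenting cells, were all positive and none was called. All 10 tested were positive pooled, against 40.7% of all tested genes, and in both backgrounds, and 9 were alike. Of the 10, H2-Eb1 was tested only through libraries with anti-PD1, which fixed its sign. The medians were 0.51 pooled, 0.51 without and 0.58 with vorinostat, and the median without vorinostat was 0.31 without anti-PD1 library 4 and 0.30 without control library 1. Cd74, the invariant chain, had 54.8, 183, 123 and 304 TPM in anti-PD1 libraries, 191, 135, 163 and 33.2 TPM in combination libraries, 14, 57.1 and 28.5 TPM in control libraries and 44.0, 71.2, 25.9 and 37.7 TPM in vorinostat libraries. Combination library 4 and anti-PD1 library 1 lay within the range of the libraries without the antibody, and the other 6 lay above it. Its change was 1.81 ± 0.45 (adjusted p = 0.0735 by limma). H2-Ab1, the beta chain of I-A, had 6.0 to 54.5 TPM with anti-PD1 and 2.12 to 12.5 TPM without it (1.73 ± 0.43; adjusted p = 0.0712 by limma), and H2-DMa, which helps load peptides, had 4.43 to 8.50 TPM and 3.03 to 5.17 TPM (0.48 ± 0.12; adjusted p = 0.0735 by limma).

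**Figure D2:**
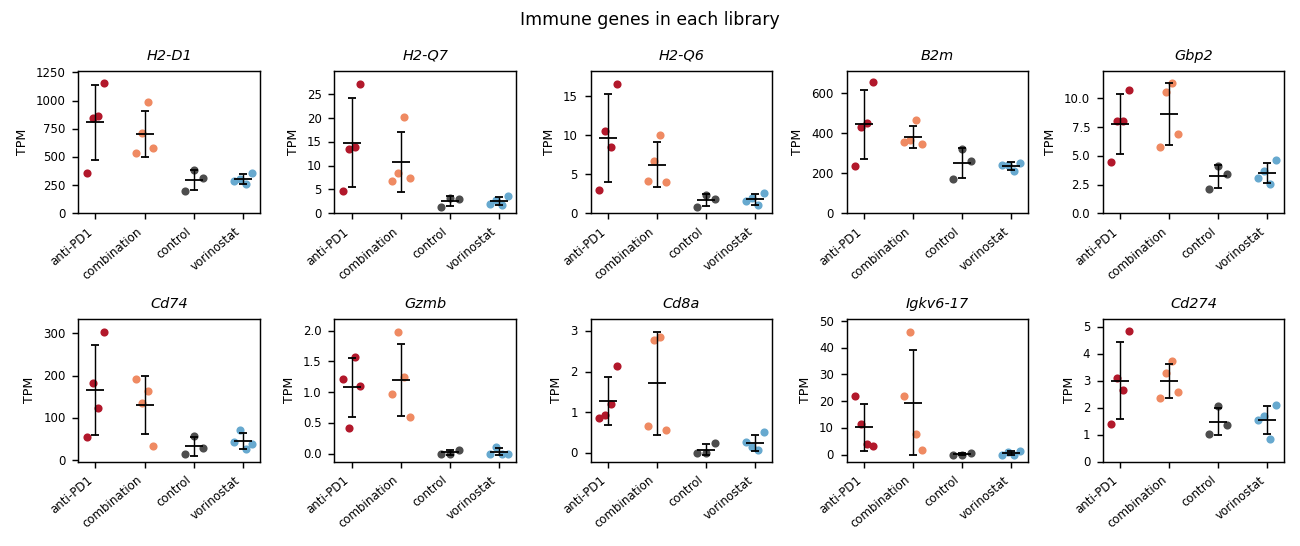
TPM of 10 immune genes in each library, with points for libraries and black bars for the group mean and SD (n = 4 anti-PD1, 4 combination, 3 control, 4 vorinostat). Both groups with anti-PD1 sit above both groups without it on average in every panel, without overlap for H2-Q6, H2-Q7, Gzmb, Cd8a and Igkv6-17, and with overlap through anti-PD1 library 1 alone for Cd274.

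Genes of T cells and cytotoxic lymphocytes were mostly near the limit of detection. Gzmb (chr14:56258838-56262260), the serine protease granzyme B of cytotoxic granules, had 1.22, 0.425, 1.57 and 1.10 TPM in anti-PD1 libraries, 0.970, 1.98, 1.24 and 0.604 TPM in combination libraries, 0, 0 and 0.0609 TPM in control libraries and 0, 0.116, 0 and 0 TPM in vorinostat libraries. These values stand for 18 to 69 recovered reads per library with anti-PD1 and 0 to 5 without it. The groups did not overlap, and the change was 1.03 ± 0.15 pooled (SE; limma, adjusted p = 0.0161), 1.00 without and 1.06 with vorinostat. Gzmb passed the filter only through libraries with anti-PD1 and so had to differ to be tested. The call was lost without control library 1 (adjusted p = 0.0636 by limma).

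Cd8a, the alpha chain of the CD8 coreceptor, also passed the filter only through libraries with anti-PD1. It had 0.856, 0.943, 1.20 and 2.14 TPM in anti-PD1 libraries, 0.668, 2.77, 2.86 and 0.567 TPM in combination libraries, 0, 0 and 0.254 TPM in control libraries and 0.275, 0.152, 0.0727 and 0.515 TPM in vorinostat libraries. The groups did not overlap, but the change of 1.02 ± 0.22 missed the threshold (adjusted p = 0.0514 by limma). Cd4, which marks helper T cells and is also expressed by some myeloid cells, differed more between backgrounds, with 0.27 with and 1.64 without vorinostat (pooled 0.96 ± 0.29; adjusted p = 0.107 by limma; unadjusted p of the difference 0.0327). Ifng, the interferon gamma gene, was under the filter, at 0 to 0.350 TPM (0 to 21 reads) with anti-PD1 and 0 to 0.061 TPM (0 to 4 reads) without it.

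Of 19 T cell receptor and coreceptor genes only 7 were tested, 2 of them (Cd8a and Lck) through libraries with anti-PD1 alone, and none was called. Their summed level was 13.1 to 27.5 TPM in anti-PD1, 14.9 to 26.7 TPM in combination, 7.63 to 10.2 TPM in control and 5.62 to 13.1 TPM in vorinostat libraries. Of 14 cytotoxic lymphocyte genes 4 were tested and only Gzmb was called, against a background of 0.237% higher calls. As Gzmb was tested only through libraries with anti-PD1, this count is no support for a rise of the list. Nkg7, a granule membrane protein gene, had 0.868 to 7.52 TPM with anti-PD1 and 0 to 1.76 TPM without it (1.21 ± 0.32; adjusted p = 0.0829 by limma). The T cell attractant Ccl5 had 2.06 to 5.79 TPM with anti-PD1 and 0.588 to 2.48 TPM without it (0.79 ± 0.18; adjusted p = 0.06 by limma). How far the class I and interferon changes follow the number of lymphocytes in a sample was not tested.

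Igkv6-17 had the largest rise of the 91 called genes. Igkv6-17 (chr6:70371439-70371993), a kappa light chain variable segment used by B and plasma cells, had 21.9, 11.5, 3.83 and 3.32 TPM in anti-PD1 libraries, 21.9, 46.1, 7.53 and 1.86 TPM in combination libraries, 0, 0 and 0.469 TPM in control libraries and 0, 1.00, 0 and 1.33 TPM in vorinostat libraries. Those were 13 to 260 reads with anti-PD1 and 0 to 10 without it, with no overlap. The change was 2.95 without and 3.12 with vorinostat, 3.03 ± 0.55 pooled (SE; limma, adjusted p = 0.0334), and 54.8% of its words occur in other genes. It was called in 5 of 15 fits without 1 library. Trbv3, a T cell receptor beta variable segment named here after its values were seen, had 8 to 55 reads with anti-PD1 and 0 to 18 without it (1.95 ± 0.36; limma, adjusted p = 0.0343).

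Trdv4 (chr14:54074905-54075515), a variable segment of the delta chain of the gamma-delta T cell receptor, fell, and it too was named after its values were seen. It was at 0 in 6 of the 8 libraries with anti-PD1, at 0.397 TPM in anti-PD1 library 2 and 0.483 TPM in combination library 2. It had 1.52, 1.49 and 0.853 TPM in control libraries and 1.29, 1.43, 0.912 and 1.82 TPM in vorinostat libraries. The counts were small, 0 to 3 reads with anti-PD1 and 8 to 15 without it. The change was -1.06 without and -1.08 with vorinostat, -1.07 ± 0.14 pooled (SE; limma, adjusted p = 0.0088), and the call held in all 15 fits without 1 library (adjusted p 0.00493 to 0.0414). Trdv4 passed the filter only through libraries without anti-PD1, so this count is no support for its fall. None of its 31-base words occurs in other genes.

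Of 15 tested B and plasma cell genes 13 were positive, against 40.7% of all tested genes, and none was called. Their median of 0.98 was the highest pooled median among lists with at least 10 tested members apart from striatal neuron genes. Of the 15, 4 passed the filter only through libraries with anti-PD1. The constant segment Igkc spread from 25.5 to 942 TPM with anti-PD1 and from 16.8 to 178 TPM without it (2.31 ± 0.73; adjusted p = 0.117 by limma). Among chemokines none of 19 was called and the median was 0.48 (0.29 without anti-PD1 library 4). Cxcl9, a ligand of the receptor Cxcr3 on activated T cells, had 0.869 to 11 TPM with anti-PD1 and 0.238 to 1.15 TPM without it (1.60 ± 0.33; adjusted p = 0.0514 by limma), and Cxcl11, another such ligand, had 0.719 to 4.13 TPM and 0.121 to 0.675 TPM with no overlap (0.91 ± 0.19; adjusted p = 0.0514 by limma). Cxcl11 and Cxcl13 were tested only because of their levels with anti-PD1.

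Genes of the targeted axis were not called. Of 16 checkpoint genes 7 were tested and their median was -0.03, or 0.02 under median-of-ratios scaling, and its sign changed with single libraries (-0.08 to 0.05). Pdcd1, which encodes PD-1, had 0.502, 0.409, 0.788 and 1.01 TPM in anti-PD1 libraries, 1.02, 0.400, 0.875 and 1.5 TPM in combination libraries, 0.966, 1.67 and 1.47 TPM in control libraries and 1.29, 0.825, 1.56 and 0.934 TPM in vorinostat libraries (-0.33 ± 0.14; adjusted p = 0.195 by limma). Cd274, the interferon-inducible ligand, had 1.39 to 4.84 TPM with anti-PD1 and 0.854 to 2.12 TPM without it, with changes of 0.63 without and 0.66 with vorinostat (0.64 ± 0.18; adjusted p = 0.0918 by limma).

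Among genes known from myeloid cells and lymphocytes, Lilr4b and Gimap3 were called. Lilr4b, an immunoglobulin-like receptor of myeloid cells named after its values were seen, had 2.06, 2.62, 3.04 and 2.97 TPM in anti-PD1 libraries, 4.80, 5.65, 4.08 and 4.37 TPM in combination libraries, 0.720, 1.51 and 1.23 TPM in control libraries and 3.02, 2.81, 3.05 and 2.44 TPM in vorinostat libraries. In Lilr4b 33.9% of the 31-base words occur in other genes, so some of its reads may come from other genes. Within each background the groups did not overlap, while anti-PD1 and vorinostat libraries did. The change was 0.78 without and 0.58 with vorinostat (pooled 0.68 ± 0.10; limma, adjusted p = 0.0196), and the call was lost without control library 1, control library 3 or vorinostat library 2 (adjusted p 0.0636, 0.0543 and 0.0539 by limma). Gimap3, a lymphocyte GTPase gene also named after the fact, did not overlap, at 0.995 to 3.23 TPM with anti-PD1 and 0.567 to 0.933 TPM without it (0.90 ± 0.16; limma, adjusted p = 0.0331), but it passed the filter only through libraries with anti-PD1. Homeostatic microglia genes had a median of 0.03 (-0.02 to 0.06 without 1 library) and disease-associated microglia genes of -0.23 (-0.32 to -0.12), with no call among 11 and 13 tested. Of 10 tested monocyte and macrophage genes only 5 were positive pooled and none was called. Their median was 0.21, with changes from -0.56 to 1.58. Among them the monocyte surface antigen Ly6c2 had 2.61 to 7.02 TPM with anti-PD1 and 0.694 to 2.91 TPM without it (0.93 ± 0.19; adjusted p = 0.0514 by limma).

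Outside the immune genes, the gene of smallest p among those that moved alike was Prr7 (chr13:55464267-55473154), a proline-rich membrane protein of synapses, named after its values were seen. It had 5.30, 6.15, 6.66 and 6.07 TPM in anti-PD1 libraries, 6.78, 8.32, 5.77 and 6.13 TPM in combination libraries, 1.75, 2.49 and 2.65 TPM in control libraries and 4.28, 3.12, 3.83 and 3.44 TPM in vorinostat libraries. The groups did not overlap, and vorinostat libraries lay between the control libraries and those with anti-PD1. The change was 0.92 ± 0.09 (SE; limma, adjusted p = 0.0019), 1.10 without and 0.73 with vorinostat.

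Fam43b (chr4:138394092-138396528) had 41.1, 38.6, 32.6 and 43.7 TPM in anti-PD1 libraries, 38.7, 40.1, 38.5 and 41.4 TPM in combination libraries, 24.2, 24.6 and 23.2 TPM in control libraries and 23.6, 24.0, 23.6 and 32.0 TPM in vorinostat libraries. Vorinostat library 4 stood apart from its group and just under the lowest library with anti-PD1. The change was 0.67 without and 0.61 with vorinostat (pooled 0.64 ± 0.08; limma, adjusted p = 0.0088). Ccdc85b, which encodes a coiled-coil protein, had 42.4 to 73.1 TPM with anti-PD1 and 23.5 to 38.4 TPM without it, again with no overlap (0.78 ± 0.11; limma, adjusted p = 0.0161). It lost its call without control library 1 (adjusted p = 0.0636 by limma).

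Jund, a subunit of the transcription factor AP-1, averaged 187 ± 26 TPM in anti-PD1, 235 ± 53 TPM in combination, 115 ± 11 TPM in control and 139 ± 24 TPM in vorinostat libraries (SD, n = 4, 4, 3 and 4). Its change was 0.69 without and 0.74 with vorinostat (pooled 0.71 ± 0.12; limma, adjusted p = 0.0318). Only the highest vorinostat library, at 169 TPM, reached into the range of the libraries with anti-PD1. Syt6, a synaptotagmin, had 5.57 to 8.28 TPM with anti-PD1 and 3.17 to 4.76 TPM without it, with no overlap (0.63 ± 0.09; limma, adjusted p = 0.0134), and lost its call without control library 1 (adjusted p = 0.0636 by limma). Atp5d, the delta subunit of mitochondrial ATP synthase, had 104 to 162 TPM with anti-PD1 and 89.0 to 116 TPM without it, with equal changes of 0.47 without and 0.46 with vorinostat (limma, adjusted p = 0.0331). Ascl5, Yjefn3 and Gm13889 also rose alike (named after their values were seen), and Gm13889 did so without overlap, at 78.0 to 118 TPM with anti-PD1 and 37 to 77.4 TPM without it (0.76 ± 0.12; limma, adjusted p = 0.0241).

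Several of these transcripts were rich in G and C. The GC content was 69.0% in Prr7, 67.1% in Jund, 66.2% in Gm13889, 64.3% in Fam43b and 64.1% in Vgf. The median was 55.9% for the 17 protein-coding genes that rose alike, against 50.2% for the 12727 protein-coding genes tested. In Jund 50.1% and in Fam43b 35.9% of the 31-base words occur in other genes. The part of base composition in these changes was not tested.

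**Figure D3:**
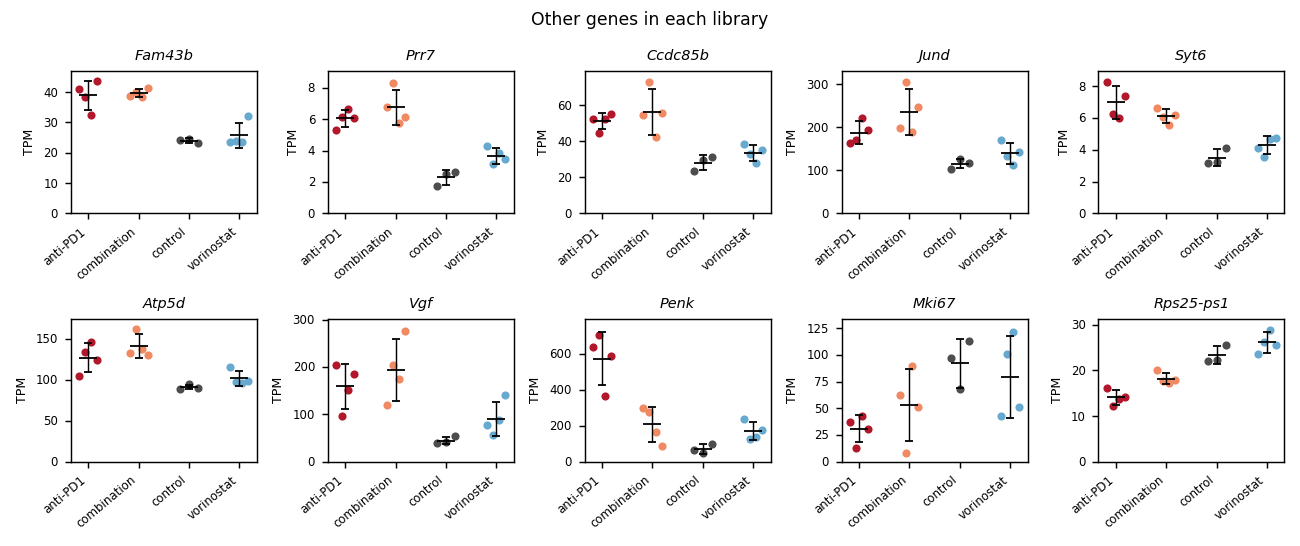
TPM of 10 further genes in each library, with points for libraries and black bars for the group mean and SD (n = 4 anti-PD1, 4 combination, 3 control, 4 vorinostat). Fam43b, Prr7, Ccdc85b, Syt6 and the pseudogene Rps25-ps1 separate all libraries with anti-PD1 from all without it, whereas Penk is high in the anti-PD1 group alone and Mki67 overlaps widely.

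Of 16 pan-neuronal genes, 1 rose (background 0.237%). Vgf (chr5:137026392-137033351), a secreted neuropeptide precursor, was that gene. It had 205, 96.8, 152 and 184 TPM in anti-PD1 libraries, 119, 204, 175 and 275 TPM in combination libraries, 38.5, 41.7 and 53.9 TPM in control libraries and 77.0, 56.8, 88.3 and 140 TPM in vorinostat libraries. Vorinostat library 4 was the 1 library without anti-PD1 that overlapped. The change was 1.77 without and 1.10 with vorinostat (pooled 1.43 ± 0.22; limma, adjusted p = 0.0238), and the call was lost without any 1 control library (adjusted p 0.0547 to 0.0691 by limma) or without vorinostat library 2 or 3 (adjusted p 0.055 and 0.0534 by limma). The list as a whole had a median of 0.00 with vorinostat and 0.97 without it, with 8 and 16 positive members, beside 57.2% and 36.9% of all tested genes. For the difference between backgrounds 4 of the 16 had an unadjusted p under 0.05 and none was called. Among all 19390 tested genes 2406 had such a p with a positive difference and 776 with a negative one. The neuron median with vorinostat ran from -0.38 without vorinostat library 3 to 0.22 without vorinostat library 4.

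Striatal projection neuron genes showed the widest gap between backgrounds of the lists with at least 10 tested members. Of 15 tested, 6 were positive with vorinostat (median -0.03) and all 15 without it (median 2.23). All 15 had an unadjusted p under 0.05 for the difference between backgrounds, though none passed adjustment over all genes. Among all 19390 tested genes 2406 positive and 776 negative differences had such a p. The median with vorinostat ran from -0.36 without combination library 2 to 0.41 without combination library 4. Penk, the enkephalin precursor, had 638, 708, 364 and 588 TPM in anti-PD1 libraries, 299, 279, 165 and 88.8 TPM in combination libraries, 63.0, 50 and 99.5 TPM in control libraries and 237, 125, 137 and 176 TPM in vorinostat libraries. Its pooled call (1.61 ± 0.27; limma, adjusted p = 0.031) rested on a change of 3.02 without vorinostat, against 0.19 with it. The summed level of the striatal genes was 1329 to 2756 TPM in anti-PD1, 232 to 1252 TPM in combination, 239 to 331 TPM in control and 437 to 963 TPM in vorinostat libraries. Whether the tissue pieces held different amounts of striatum cannot be told apart from the treatment for anti-PD1 against control.

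**Figure D4:**
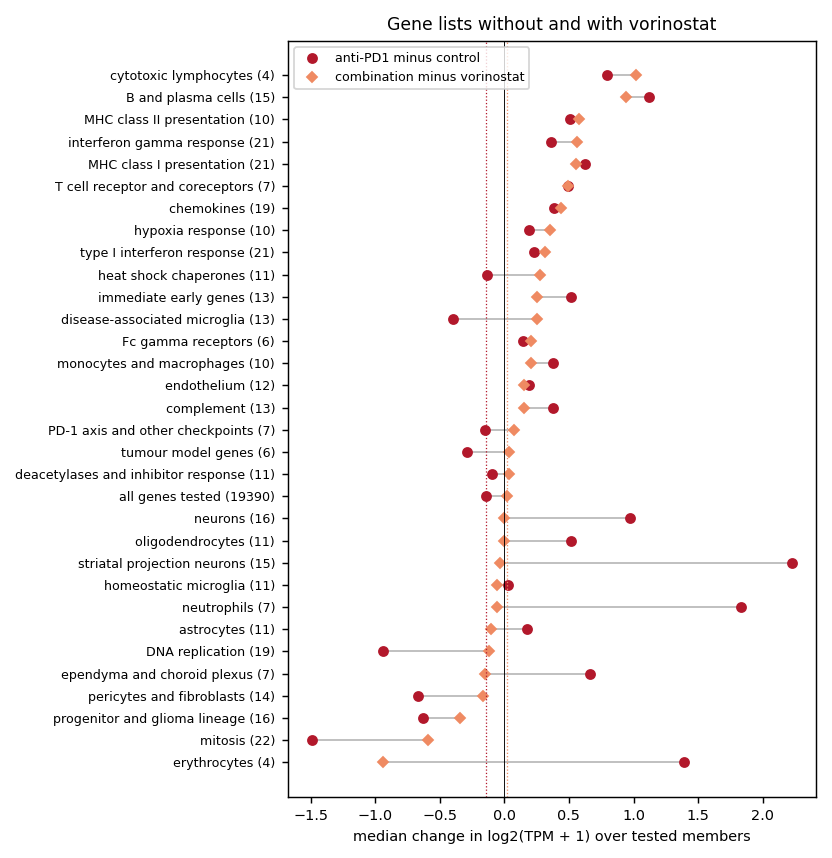
Median change in log2(TPM + 1) over the tested members of each list with at least 4 tested (number in brackets), for anti-PD1 minus control (circles) and combination minus vorinostat (diamonds); dotted lines mark the medians over all genes. The lymphocyte, class I, class II, interferon gamma and chemokine lists have both medians to the right, mitosis has both to the left, and neuron and striatal lists are to the right without vorinostat alone.

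No listed gene of mitosis or DNA replication was called. All 22 mitosis genes were negative in both backgrounds and all 22 had an unadjusted pooled p under 0.05. At that p 2779 of the 19390 tested genes were lower, and 40.7% of tested genes were positive pooled. The mitosis medians were -1.03 pooled, -1.49 without vorinostat and -0.59 with it. The median with vorinostat rested on single libraries, at -0.04 without combination library 2, -0.90 without combination library 3 and -0.36 without vorinostat library 3, and the pooled median stayed between -1.17 and -0.78. The median of 19 DNA replication genes with vorinostat was -0.12 and turned to 0.23 without combination library 2. Psrc1, a spindle protein gene, had 11.5 to 47.3 TPM with anti-PD1 and 28.1 to 66.0 TPM without it (-0.92 ± 0.23; adjusted p = 0.073 by limma), and Nek2, a centrosome kinase gene, 3.63 to 20.8 TPM and 11.7 to 29.0 TPM (-0.97 ± 0.27; adjusted p = 0.0942 by limma). Mki67, the proliferation marker Ki-67, had 36.9, 13.3, 42.3 and 30.7 TPM in anti-PD1 libraries, 62.1, 8.19, 90.1 and 51.3 TPM in combination libraries, 96.7, 67.6 and 113 TPM in control libraries and 42.4, 101, 122 and 51.1 TPM in vorinostat libraries (-1.24 ± 0.45; adjusted p = 0.149 by limma). The groups separated without vorinostat and overlapped with it.

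The glioma lineage list had all 16 tested members negative pooled, where 40.7% of all tested genes were positive, and none was called. Its pooled median was -0.49. It was -0.29 without combination library 2 and -0.32 without anti-PD1 library 2, with 3 positive members each. The median with vorinostat, -0.34, turned to 0.09 without combination library 2 and was -0.04 without vorinostat library 3. Olig2 was at -0.66 ± 0.37 and the growth factor receptor Pdgfra at -0.65 ± 0.46 (adjusted p = 0.298 and 0.395 by limma). The neuron mean moved with these lists. With it as a covariate the mitosis median was -0.39, all 22 members stayed negative, and the glioma lineage median turned to 0.14, with Olig2 at 0.09 and Pdgfra at 0.21.

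Among stromal genes, Lum, the collagen-binding proteoglycan lumican, fell and was the only call among 14 pericyte and fibroblast genes, against a background of 0.232% lower calls. It had 3.51, 6.18, 7.14 and 7.33 TPM in anti-PD1 libraries, 12.9, 5.77, 12.2 and 10.4 TPM in combination libraries, 19.5, 41.5 and 21.3 TPM in control libraries and 16.9, 23.2, 29.4 and 12.4 TPM in vorinostat libraries. Only combination library 1 and vorinostat library 4 overlapped. The change was -1.97 without and -0.91 with vorinostat (pooled -1.44 ± 0.23; limma, adjusted p = 0.0296), and the call was lost without any 1 control library, anti-PD1 library 2 or vorinostat library 2 or 3 (adjusted p 0.0553 to 0.0727 by limma). Dcn, the related proteoglycan decorin, had 3.26 to 9.46 TPM with anti-PD1 and 7.94 to 18 TPM without it (-0.61 ± 0.17; adjusted p = 0.0897 by limma).

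The genes that fell were mostly pseudogenes. Of the 45, 28 were pseudogenes (62.2%), against 13.9% of the genes tested, and among the 11 that fell alike 9 were pseudogenes and none was protein coding. Rps25-ps1 (chr6:145266400-145266777), a processed copy of the ribosomal protein gene Rps25, had 16.2, 12.2, 13.7 and 14.2 TPM in anti-PD1 libraries, 20.1, 17.7, 17.2 and 17.9 TPM in combination libraries, 22.1, 22.4 and 25.6 TPM in control libraries and 23.6, 26.3, 28.9 and 25.6 TPM in vorinostat libraries. The groups did not overlap, and the change was -0.60 ± 0.07 (SE; limma, adjusted p = 0.00761), called in all 15 fits without 1 library. In its words 82.2% are shared with other genes, so its reads may come from Rps25 or other copies. Rps25 itself had a mean of 582 ± 127 TPM in anti-PD1, 716 ± 54 TPM in combination, 806 ± 87 TPM in control and 742 ± 121 TPM in vorinostat libraries (SD, n = 4, 4, 3 and 4), a pooled change of -0.26 ± 0.11 (adjusted p = 0.201 by limma). Rpl32-ps, a copy of Rpl32, had 2.17 to 4.88 TPM with anti-PD1 and 5.08 to 10.6 TPM without it, from 9 to 27 and 28 to 65 reads (-0.87 ± 0.17; limma, adjusted p = 0.0437), and was called in 3 of 15 fits without 1 library.

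The pooled average also called genes that moved in 1 background. The smallest pooled p belonged to Gm38061 (-1.36 ± 0.08; limma, adjusted p = 7.04e-06), which passed the filter only through control libraries and so had to differ to be tested. It was at 0 in 3 of 4 anti-PD1 libraries, with 0.233 TPM in library 3, and at 0 in every combination library, against 5.60, 5.45 and 5.71 TPM in control libraries and 0 in 3 of 4 vorinostat libraries, with 0.203 TPM in library 4. Its change was -0.07 with and -2.64 without vorinostat, and the difference was called (limma, adjusted p = 1.34e-05). Klk7, described above, was the opposite case, with 1.13 with and 0.05 without vorinostat. Fgl2, a fibrinogen-like protein gene, and Tgm2, a transglutaminase gene, both named after their values were seen, had larger changes with vorinostat, 1.03 with and 0.50 without it for Fgl2 and 0.90 with and 0.40 without it for Tgm2, and neither difference was called (unadjusted p 0.0723 and 0.0695). Of the 57 called genes that were not alike, Arpp21, a cyclic AMP-regulated phosphoprotein gene of striatal neurons, had 22.1 to 41.6 TPM in anti-PD1, 8.37 to 20.6 TPM in combination, 6.28 to 6.99 TPM in control and 7.23 to 19.3 TPM in vorinostat libraries.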

How the data were processed

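RNA from 15 mouse glioma samples was sequenced after library preparation with a NEBNext Ultra kit, per the labels' protocols. No source used here gives strand-aware counting, so reads of overlapping and antisense genes cannot be told apart. FastQC, HISAT2, StringTie, DESeq2 and the mm10 build are named, without versions, per the submitters' processing notes. The deposited table holds TPM per gene symbol, made by the authors, and no source used here states the adjustment that its title names. It lists 38172 symbols, sums to 996108 to 997722 TPM per library and holds no gene of chromosome X, Y or the mitochondrion. For 99.2% of 20311 spliced genes checked, the length behind the TPM was the whole gene span with introns. Whole reads, within a tolerance of 0.01, were recovered for 37802 symbols (99.031%).

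The 19390 genes that reached 1 TPM in 3 or more libraries were tested as log2(TPM + 1) with limma 3.58.1 in R 4.3.3, with 4 group means over all 15 libraries and Benjamini-Hochberg adjustment. A pseudocount of 1 understates changes of low genes. No count model was the main test, and voom on recovered reads was an alternative. Genes named were the 15 largest changes per direction among called genes alike in both backgrounds with a mean of at least 5 TPM and a symbol that is not a predicted model (Gm or Rik names), 2 to 4 genes of smallest p per list and 14 fixed genes, of which 1 is not reported here, and others are marked as named after their values were seen. The members and the 34 lists were chosen with earlier results of these data known. Promoters are from RefSeq, and the motif was chosen after the promoters were read.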

Additional observations from a re-analysis of the deposited data

Results flagged for a closer look

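In 9 of 99 groups of 4 libraries checked, 1 library stood far from the others. For normally spread values chance gives about 1 in 20. A group with only 1 library above 0 is flagged at any value, as were Gzmb in vorinostat libraries and Trdv4 in both groups with anti-PD1. The 1 in 20 does not hold for such groups, so the 9 is a description only. The highest vorinostat library had 0.116 TPM of Gzmb (library 2), 0.061 TPM of Ifng (library 4), 32.0 TPM of Fam43b (library 4) and 116 TPM of Atp5d (library 1). Combination library 2 was the lowest of its group for Olig2 at 238 TPM, Pdgfra at 52.6 TPM and Rpl32-ps at 2.17 TPM. Trdv4 was above 0 in 1 library of each group with anti-PD1, at 0.397 TPM in anti-PD1 library 2 and 0.483 TPM in combination library 2.

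A difference between backgrounds was called for 2 genes. For Gm38061 the change with vorinostat exceeded that without it by 2.58 (limma, adjusted p = 1.34e-05), from at most 1 read per anti-PD1, combination or vorinostat library, against 22 to 40 reads per control library. Gm38061 passed the filter only through control libraries. It was at or near 0 in vorinostat libraries, where no fall could be seen, so its call is no support for a differing effect of anti-PD1. For 2700046G09Rik the change with vorinostat exceeded that without it by 1.14 (limma, adjusted p = 0.0348). That transcript had 4.43 ± 0.52 TPM in anti-PD1 and 8.16 ± 0.71 TPM in combination libraries, and 8.83 ± 1.00 TPM in control and 6.52 ± 0.70 TPM in vorinostat libraries (SD, n = 4, 4, 3 and 4).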

How the results depend on the processing

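The signs of all main calls held in every setting in which they were tested, but the counts did not. The order below is genes called pooled, higher, lower, called without vorinostat, called with it, called for the difference, and called and alike, against 91, 46, 45, 1026, 2, 2 and 34. No filter gave 60, 31, 29, 300, 3, 9 and 28. A mean of at least 5 TPM gave 53, 28, 25, 1073, 0, 0 and 18. Median-of-ratios scaling gave 172, 100, 72, 810, 2, 1 and 83. The neuron mean as a covariate gave 32, 14, 18, 3, 9, 1 and 18, and turned Olig2 to 0.086 and Pdgfra to 0.21. Array weights gave 3213, 1074, 2139, 7079, 17, 1094 and 649. Voom on recovered reads gave 45, 29, 16, 1670, 1, 1 and 21. A pseudocount of 0.1 TPM gave 94, 48, 46, 891, 0, 0 and 37. A fit with 1 anti-PD1 and 1 vorinostat term gave 26 genes called, 21 higher and 5 lower. Without 1 library the ranges were 7 to 565, 5 to 215, 2 to 350, 0 to 4982, 0 to 9, 0 to 5 and 5 to 168. The causes were not tested.

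With the replicate number as a block the counts were 663, 285, 378, 2621, 0, 1 and 228. The numbers were not taken to pair the groups compared. Same-numbered libraries correlated at 0.05 to 0.30 between anti-PD1 and control, where 3 of 6 libraries matched their own number best, and at -0.16 to 0.44 between combination and vorinostat, where 2 of 8 did. As a hint from the data, they correlated at 0.20 to 0.64 between anti-PD1 and combination, where 7 of 8 matched, and at 0.03 to 0.46 between vorinostat and control, where 5 of 6 did. Depth limits Gzmb, Trdv4, Trbv3 and Gm38061, which rest on few reads.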
